A study of Mus musculus with 12 samples.

Results

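Stefins are small inhibitors of cysteine proteases, and 7 mouse genes of that family (Stfa1, Stfa2, Stfa3, Cstdc4, Cstdc5, Cstdc6 and Cstb) were examined among the 57180 genes of a deposited expression table. The genes were taken by symbol, and all 7 symbols were found once. They were selected on their TPM in these same 12 libraries, by a contrast that is not recorded, so every level, fold change and adjusted p-value of theirs is given as a description of these libraries. RNA was sequenced from HC11 cells, a mouse mammary epithelial line, that were sorted, left overnight to form aggregates and then put through an in vitro migration assay. The 4 groups had 3 libraries each: Snail1 knockdown at 36 h of migration, control (genotype given as WT) at 36 h, Snail1 knockdown at 0 h, and control at 0 h. Control titles hold "scr", and the names of the deposited knockdown means begin with "sh", so WT need not mean cells without a construct. The study asked what Snail1, the zinc-finger repressor encoded by Snai1, does in collective migration. Whether the 3 libraries of each group are separate cultures, whether the knockdown was a clone, and what "mix" in the title of control 36 h library 4 means are not given in the labels. The p-values therefore rest on the spread among libraries, which may be technical.

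Stefins are the intracellular branch of the cystatin superfamily. They lack the signal peptide of secreted cystatins, stay in the cytosol and nucleus, and plug the active-site cleft of papain-like proteases such as cathepsins B, L and H when these leave the lysosome. Humans have a single stefin A gene, which is best known from stratified epithelia, whereas in mice stefin A has multiplied into a cluster of similar genes, also known from neutrophils. Stefin B, encoded by Cstb, is expressed in most cells, and its loss in humans causes a progressive myoclonic epilepsy.

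The 6 genes other than Cstb lie on chromosome 16 in the RefSeq annotation. They are within a run of related genes that includes Stfa2l1 and ends with Stfa3, next to Casr. Where the run starts was not examined. The cluster below means these 6 genes, and other genes of the run, such as Stfa2l1, are in none of its sums or shares. Cstb lies on chromosome 10. The transcripts of the cluster genes were 75.9% to 98.1% identical over their aligned bases in 15 pairs. Stfa1 and Cstdc5 were the closest pair, at 98.1%, and Cstdc5 and Cstdc6 were 95.4% identical. Of the 50-base windows in each transcript, the share found unchanged in another gene was 25.4% for Stfa1, 15.9% for Stfa2, 35.6% for Cstdc4, 33.5% for Cstdc5 and 33.7% for Cstdc6, and 0 for Stfa3 and Cstb. Reads from such windows cannot be given to 1 gene with certainty, so levels of the first 5 are uncertain individually, while Stfa3 and Cstb have no such window.

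RefSeq promoter sequences, from 250 bases before to 50 bases after the start of the gene on GRCm38.p6, were at hand for 5 of the 7 genes, and Cstdc6 and Cstb had none. Those of Stfa2, Cstdc5, Stfa3 and Cstdc4 are shown because these near-copies differ in level and in whether they hold the short motif CACCTG. Capitals mark CACCTG, the E-box letters that Snail proteins are known to bind, searched on both strands (CAGGTG on the other). The Stfa2 window is chr16:36408314-36408613 on the minus strand, that of Cstdc5 is chr16:36367521-36367820 on the minus strand, that of Stfa3 is chr16:36455343-36455642 on the minus strand, and that of Cstdc4 is chr16:36183962-36184261 on the plus strand, each written 5′ to 3′ in the direction of transcription.
Stfa2: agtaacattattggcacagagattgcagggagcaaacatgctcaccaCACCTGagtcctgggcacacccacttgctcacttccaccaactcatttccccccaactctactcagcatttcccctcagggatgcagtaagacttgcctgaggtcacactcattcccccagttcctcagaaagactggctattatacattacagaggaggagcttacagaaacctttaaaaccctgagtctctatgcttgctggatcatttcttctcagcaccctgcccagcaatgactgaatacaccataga
Cstdc5: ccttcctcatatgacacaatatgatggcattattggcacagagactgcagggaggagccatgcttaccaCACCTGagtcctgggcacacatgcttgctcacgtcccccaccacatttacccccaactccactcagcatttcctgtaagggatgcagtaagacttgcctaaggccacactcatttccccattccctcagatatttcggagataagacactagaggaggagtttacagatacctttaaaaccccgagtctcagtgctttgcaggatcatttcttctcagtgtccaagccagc
Stfa3: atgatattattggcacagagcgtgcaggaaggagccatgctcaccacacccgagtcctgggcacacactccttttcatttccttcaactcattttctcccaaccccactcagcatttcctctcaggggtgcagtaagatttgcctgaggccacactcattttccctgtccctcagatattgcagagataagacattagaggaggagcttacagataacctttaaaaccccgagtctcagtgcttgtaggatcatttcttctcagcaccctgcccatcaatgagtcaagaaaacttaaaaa
Cstdc4: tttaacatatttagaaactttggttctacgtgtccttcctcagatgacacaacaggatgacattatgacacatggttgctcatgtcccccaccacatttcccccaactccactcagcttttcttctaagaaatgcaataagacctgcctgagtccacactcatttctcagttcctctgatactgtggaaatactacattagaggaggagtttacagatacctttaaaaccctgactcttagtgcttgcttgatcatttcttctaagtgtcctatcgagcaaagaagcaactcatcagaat
Stfa2 held the motif with its first base at −203 from the start, Cstdc5 at −181 and Stfa1, which is not shown, at −201, whereas these letters were not in the Stfa3 or Cstdc4 window. Of 32851 promoters of the same length, 20.2% held CACCTG on either strand. All 5 windows held TTTAAA, between −31 and −9 from the start, against 13.2% of the same promoters, and it overlaps no CACCTG match. Other letters were searched too, where N is any base. TGANTCA was only in the Stfa3 window, at 29 from the start, against 7.81% of the same promoters. TTCNNNGAA was only in that of Cstdc4, at −128, against 8.3%. CANNTG, which includes CACCTG, was in every window but that of Stfa3, against 72.3%. The Stfa2l1 promoter held CACCTG at −206. The motifs were picked after the sequences had been seen, and a match describes letters, not binding. Over 15 pairs of the 5 promoters and that of Stfa2l1, 71.1% to 96.4% of aligned bases were identical.

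The values are the authors' TPM, levels scaled for gene length and set to the same total in every library. Depth cannot be read from TPM and is unknown. Libraries held 12957 to 13945 genes at 1 TPM or more. Snai1 had 0.407 ± 0.192 TPM in knockdown and 3.13 ± 0.688 TPM in control cells at 36 h, and 0.617 ± 0.158 TPM in knockdown and 1.85 ± 0.601 TPM in control cells at 0 h (SD, n = 3 each). Knockdown 0 h library 2 stood apart: 14.0% of its TPM came from mitochondrial genes, against 1.45% to 6.15% in the other 11 libraries, and 33.7% came from genes of 300 to 700 bases, against 14.3% to 20.1%. All 7 genes are between 387 and 619 bases long, and values without this library are given where leaving it out changes a call or a count of calls. All 6 mammary epithelial markers were present in every group, with a summed level of 19472 to 25456 TPM in knockdown and 15897 to 18764 TPM in control at 36 h, and 3325 to 10276 TPM in knockdown and 10063 to 10278 TPM in control at 0 h. Their sum was thus higher at 36 h, the same direction over time as the stefin A cluster, and its part in the results was not tested. The 6 did not all follow the sum. Their median log2 value over time was 0.67 in knockdown and −0.13 in control, beside all-gene medians of 0.33 and −0.01. Among them Krt5, a basal keratin, rose over time by 1.68 on the log2 scale in knockdown (limma adjusted p = 0.00108) and by 1.15 in control (adjusted p = 0.0231). Krt14 rose by 1.88 in knockdown (adjusted p = 0.0412), and Epcam had −0.08 there (adjusted p = 0.908). Without knockdown 0 h library 2, 2 were called higher and 1 lower in knockdown, and 2 higher and 2 lower in control. Of all genes, 2.87% and 2.82% were then called. Between genotypes none of the 6 was called with all 12 libraries. Without knockdown 0 h library 2, 2 were called lower in knockdown at 0 h, and 1 higher and 1 lower at 36 h. In that fit 23.7% of all genes were called at 0 h and 19.0% at 36 h. Of the fibroblast markers, 4 of 6 reached 1 TPM, with a summed level of 7.82 to 13.5 TPM in knockdown and 11.9 to 23.2 TPM in control at 36 h, and 3.76 to 15.5 TPM in knockdown and 14.8 to 17.0 TPM in control at 0 h. Of the 3 tested, Col1a1 was lower in knockdown at 0 h by 1.01 (limma adjusted p = 0.0398), where 14.6% of all genes were called lower, and none was called at 36 h. Without knockdown 0 h library 2, none was called at 0 h and 1 was lower in knockdown at 36 h, beside the same 23.7% and 19.0% of all genes. Of 11 markers of neutrophils and other white blood cells, 9 stayed under 1 TPM in every library, Elane and Ngp among them at 0 throughout. Their summed level was 3.02 to 3.10 TPM in knockdown and 3.73 to 4.64 TPM in control cells at 36 h, and 8.02 to 12.4 TPM in knockdown and 10.3 to 15.4 TPM in control cells at 0 h, the opposite direction over time to the stefin A cluster. That sum rests on few genes, since the 9 reached at most 0.43 TPM. Only Cd68 could be tested, and it fell over time by 1.46 in knockdown (limma adjusted p = 0.0158) and by 1.68 in control. The markers other than Cd68 were too low to be tested.

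Levels of the stefin A cluster were higher at 36 h than at 0 h, and those of Cstb lower. The summed TPM of the 6 cluster genes was 397 ± 41.1 in knockdown cells at 36 h against 35.3 ± 12.1 at 0 h, an 11.2-fold ratio, and 327 ± 81.1 in control cells at 36 h against 91.2 ± 8.74 at 0 h, a 3.58-fold ratio (SD, n = 3 each). At 0 h the sum in knockdown cells was 0.388 times that in control cells, and at 36 h it was 1.22 times. Without knockdown 0 h library 2 the ratio between times in knockdown was 14.0, and that between knockdown and control at 0 h was 0.311. The libraries of knockdown and control did not overlap at 0 h, and overlapped at 36 h. Cstb was by far the most abundant of the 7, with 75.1% to 98.8% of their summed TPM in a library, and its means were lower at 36 h than at 0 h in both genotypes. In these bulk samples a larger share of cells with a transcript and more transcript per cell cannot be told apart.

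**Figure D1:**
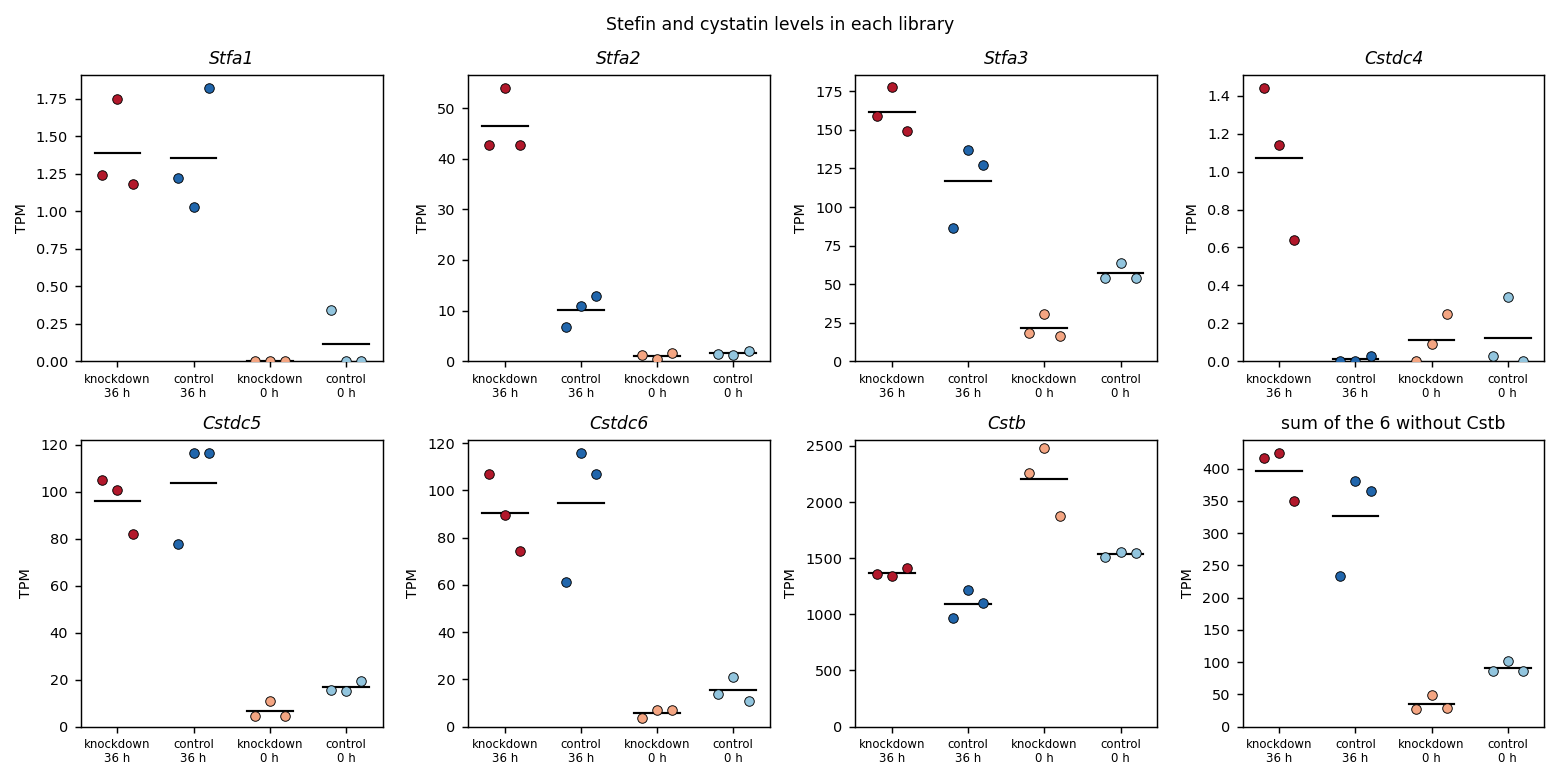
TPM of each of the 7 genes, and of the sum of the 6 without Cstb, in each of the 12 libraries. Points are libraries, bars are group means (n = 3), and each panel has its own axis from 0. Stfa2 is high in knockdown at 36 h, where its lowest library has 42.6 TPM and the highest control library 12.9 TPM, while Cstb is highest at 0 h.

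Stfa2 encodes one of the mouse stefin A proteins. It had 42.6, 54.0 and 42.6 TPM in the 3 knockdown libraries at 36 h, against 6.70, 11.0 and 12.9 TPM in the control libraries at 36 h. At 0 h it had 1.14, 0.49 and 1.64 TPM in knockdown libraries, against 1.46, 1.30 and 2.01 TPM in control libraries. Every knockdown library at 36 h lay above every other library, control at 36 h was intermediate, and the genotypes overlapped at 0 h. The ratio of means was 4.56 between knockdown and control at 36 h, 42.6 between 36 h and 0 h in knockdown, and 6.41 between 36 h and 0 h in control. In limma's test on log2(TPM + 1), fitted over 14426 genes with Benjamini-Hochberg adjustment, Stfa2 rose by 2.12 ± 0.280 (log2 fold change ± SE, adjusted p = 0.00640) in knockdown over control at 36 h. It was also higher at 36 h than at 0 h in knockdown, by 4.53 ± 0.280 (adjusted p = 1.01e-05), and in control, by 2.08 ± 0.280 (adjusted p = 0.00961). At 0 h the knockdown-minus-control value was −0.34 (adjusted p = 0.376). The call over time in control was lost when control 0 h library 1 (adjusted p = 0.0558), control 0 h library 2 (0.0626) or control 36 h library 4 (0.0612) was left out.

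Stfa3, the stefin A gene at the end of the cluster with no shared window, was the most abundant of the 6. It had 159, 178 and 149 TPM in knockdown at 36 h, against 86.4, 137 and 128 TPM in control at 36 h. At 0 h it had 18.0, 30.8 and 16.4 TPM in knockdown, against 54.1, 63.6 and 54.3 TPM in control. The knockdown libraries thus lay all above the control libraries at 36 h and all below them at 0 h, and both genotypes were higher at 36 h without overlap. Stfa3 fell in knockdown relative to control at 0 h by 1.41 on the log2 scale (SE 0.259, limma adjusted p = 0.00685), a ratio of means of 0.379. At 36 h the ratio was 1.38 and the log2 value of 0.49 did not pass (adjusted p = 0.398). Over time it rose in knockdown by 2.89 ± 0.259 (adjusted p = 0.0002125), 7.45 times on means. In control the ratio of means was 2.04 and the log2 value of 0.99 did not pass (adjusted p = 0.246), but passed without knockdown 0 h library 2 (adjusted p = 0.00978).

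Cstdc5 and Cstdc6 encode further cystatin-domain proteins of the cluster. Cstdc5 had 105, 101 and 81.9 TPM in knockdown and 77.9, 116 and 116 TPM in control at 36 h, then 4.56, 10.8 and 4.32 TPM in knockdown and 15.7, 15.0 and 19.5 TPM in control at 0 h. Cstdc6 had 107, 89.6 and 74.4 TPM in knockdown and 61.3, 116 and 107 TPM in control at 36 h, then 3.47, 7.12 and 6.94 TPM in knockdown and 13.9, 21.0 and 11.0 TPM in control at 0 h. For both genes the genotypes overlapped at 36 h, whereas at 0 h every knockdown library was below every control library. At 0 h, Cstdc5 fell in knockdown by 1.33 (SE 0.307, limma adjusted p = 0.0166) and Cstdc6 by 1.26 (SE 0.335, adjusted p = 0.0280) on the log2 scale, with ratios of means of 0.391 and 0.382. At 36 h their log2 values of −0.09 (adjusted p = 0.943) and −0.03 (adjusted p = 0.985) were smaller than their SE. Both rose over time, by 3.78 ± 0.307 (adjusted p = 0.0001188) and 3.77 ± 0.335 (adjusted p = 0.0002125) in knockdown, and by 2.54 ± 0.307 (adjusted p = 0.00500) and 2.55 ± 0.335 (adjusted p = 0.00799) in control. The ratios of means between 36 h and 0 h were 14.7 for Cstdc5 and 15.5 for Cstdc6 in knockdown, against 6.18 and 6.19 in control. The Cstdc6 call in control was lost when control 0 h library 1 (adjusted p = 0.0508), control 0 h library 3 (0.0526) or control 36 h library 4 (0.0560) was left out.

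Stfa1 and Cstdc4, 2 further members of the cluster, were near the lower limit of the table. Stfa1 had 1.24, 1.75 and 1.18 TPM in knockdown and 1.22, 1.03 and 1.82 TPM in control at 36 h. It was listed at 0 in all 3 knockdown libraries and in 2 of 3 control libraries at 0 h, the other having 0.34 TPM. Stfa1 entered the test only through its 36 h libraries, and its 36 h minus 0 h value was 1.25 in knockdown (limma adjusted p = 0.0184) and 1.08 in control (adjusted p = 0.0762, and 0.0207 without knockdown 0 h library 2). The knockdown call did not pass without any one of the knockdown 36 h libraries (adjusted p = 0.0662 to 0.111). Cstdc4 had 1.44, 1.14 and 0.64 TPM in knockdown at 36 h, against 0, 0 and 0.03 TPM in control at 36 h. At 0 h it had 0, 0.09 and 0.25 TPM in knockdown and 0.03, 0.34 and 0 TPM in control. Only the knockdown libraries at 36 h stood above 0.34 TPM. Cstdc4 was too low to be tested, and with no filter on low values its knockdown-minus-control value at 36 h was 1.02 (limma adjusted p = 0.0334).

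Cstb encodes stefin B, the general intracellular inhibitor of the family. It had 1356, 1342 and 1414 TPM in knockdown and 967, 1214 and 1103 TPM in control at 36 h. At 0 h it had 2258, 2479 and 1875 TPM in knockdown and 1512, 1552 and 1548 TPM in control. Knockdown lay above control without overlap at both times, and each genotype was lower at 36 h than at 0 h without overlap. By mean TPM it ranked 76th of the genes in knockdown and 95th in control at 36 h, and 49th in knockdown and 59th in control at 0 h. In limma's test Cstb rose in knockdown over control at 0 h by 0.51 ± 0.148 (adjusted p = 0.0372), 1.43 times on means. At 36 h the ratio was 1.25 and the log2 value of 0.33 did not pass (adjusted p = 0.296). The 36 h minus 0 h values were −0.68 in knockdown (adjusted p = 0.0576) and −0.50 in control (adjusted p = 0.363). Without knockdown 0 h library 2 all 4 passed, with adjusted p = 0.0201 at 0 h, 0.0401 at 36 h, 0.0203 over time in knockdown and 0.0239 over time in control. The call at 0 h was lost without any one of 8 of the 12 libraries (adjusted p = 0.0566 to 0.117).

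**Figure D2:**
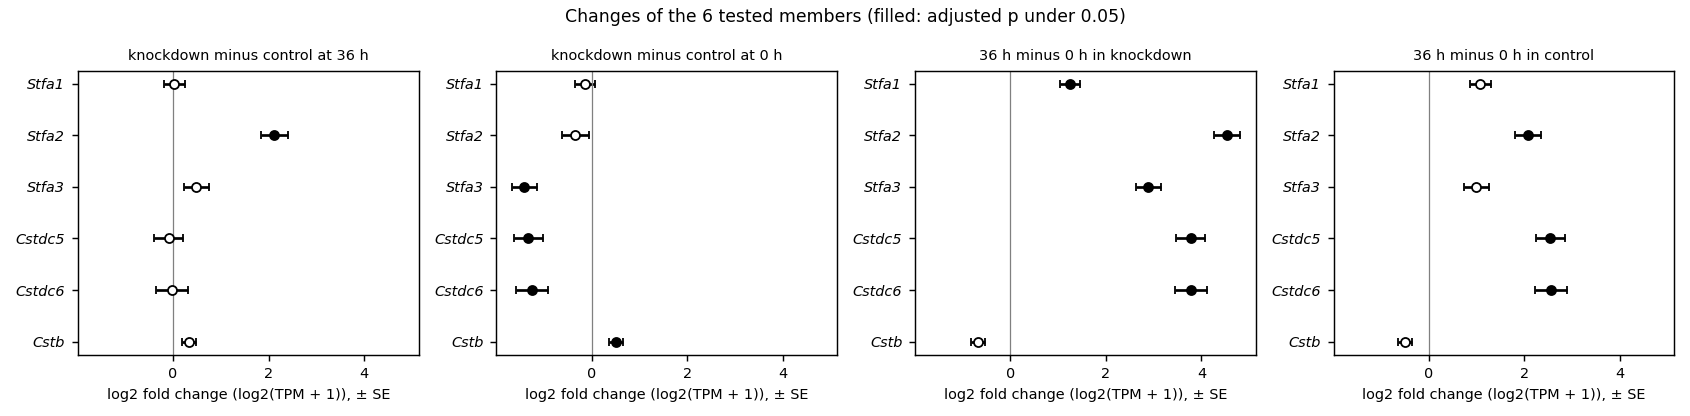
Differences in log2(TPM + 1) of the 6 tested genes in 4 comparisons, with bars for ± SE from limma (n = 3 per group). Filled points have an adjusted p under 0.05. At 36 h the knockdown-minus-control value of Stfa2 (2.12) is filled and the other 5 are open, while at 0 h Stfa3, Cstdc5 and Cstdc6 lie below 0 and Cstb above it.

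Counted over the 6 tested genes, 1 rose (Stfa2) in knockdown over control at 36 h, where 2.53% of all tested genes were called, 0.894% higher and 1.64% lower. At 0 h, 1 rose (Cstb) and 3 fell (Stfa3, Cstdc5 and Cstdc6), with 17.7% of all genes called, 3.10% higher and 14.6% lower. Between 36 h and 0 h, with 1.12% of all genes called in knockdown, 0.998% higher and 0.125% lower, 4 rose there (Stfa2, Stfa3, Cstdc5 and Cstdc6) besides Stfa1, which passed the filter through its 36 h libraries. In control 3 rose (Stfa2, Cstdc5 and Cstdc6) and none fell, with 0.360% called, 0.250% higher and 0.111% lower. Without knockdown 0 h library 2 all 6 were called over time in each genotype, 5 higher and Cstb lower, with 2.87% of genes called in knockdown and 2.82% in control, and at 36 h both Stfa2 and Cstb were called between genotypes. Without the other groups in the fit none of the 4 calls at 0 h passed (adjusted p = 0.0865 to 0.207). Leaving out control 0 h library 1 (adjusted p = 0.0560) or 3 (0.0649) ended the 0 h call of Cstdc5, and leaving out control 0 h library 1 (0.0805), control 0 h library 2 (0.104) or knockdown 0 h library 1 (0.0638) that of Cstdc6. The median log2 value of the 6 was 0.18 at 36 h and −0.80 at 0 h between genotypes, beside −0.09 and −0.41 over all genes, and 3.33 in knockdown and 1.58 in control over time, beside 0.33 and −0.01. The all-gene median of −0.41 at 0 h became −0.02 when libraries were scaled by medians of ratios, and on that scale the 0 h values were −0.95 for Stfa3 (limma adjusted p = 0.106), −0.89 for Cstdc5 (0.167) and −0.83 for Cstdc6 (0.158), none of which passed, and 0.98 for Cstb (0.0476), against 0.51 on the TPM scale. Knockdown 0 h library 2 had the highest level of the 3 knockdown 0 h libraries for Stfa3, Cstdc5, Cstdc6 and Cstb. Without it, and without that scaling, Stfa3, Cstdc5 and Cstdc6 fell at 0 h by 1.68 (adjusted p = 0.0002659), 1.70 (adjusted p = 0.0003532) and 1.40 (adjusted p = 0.0164) on the log2 scale.

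Counting all 7 genes by whether the libraries overlap, 4 were higher in every knockdown than in every control library at 36 h (Stfa2, Stfa3, Cstdc4 and Cstb) and none was lower, while 14.8% of the tested genes were higher and 22.0% lower in this way. At 0 h, 1 was higher and 3 were lower, with 7.24% and 30.7% of the tested genes. Over time 6 were higher and 1 lower at 36 h in knockdown (15.0% and 3.91% of the tested genes), and 5 were higher and 1 lower in control (9.55% and 12.3%). Cstdc4, counted between genotypes at 36 h and over time in knockdown, is not among the tested genes behind these shares. Stfa1, counted as higher over time in both genotypes, passed the filter only through its 36 h libraries. Its lack of overlap over time was thus partly set by the filter.

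Whether the change over time differed between genotypes was tested directly, as the 36 h change in knockdown minus that in control. None of the 14426 tested genes passed in limma (0%), with 766 genes at an unadjusted p under 0.05. With no filter, with the replicate block or with median-of-ratios scaling 1 gene passed, and with 1 library left out 0 or 1 passed, except 10 without knockdown 0 h library 2. Stfa2 had the largest difference of the 6, 2.46 ± 0.396 (limma adjusted p = 0.142), and Stfa3 had 1.90 ± 0.366 (adjusted p = 0.305). Cstdc5 and Cstdc6 had 1.23 each (adjusted p = 0.595), Stfa1 0.17 (adjusted p = 0.772) and Cstb −0.18 (adjusted p = 0.660). Without knockdown 0 h library 2, Stfa3 passed at 2.17 (adjusted p = 0.0115), with 0.0703% of genes called, and Stfa2 at 2.23 did not (adjusted p = 0.0732).

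The make-up of the summed transcripts of the 6 chosen cluster genes also differed between groups. Stfa2 gave 11.7 ± 1.29% of the summed TPM of the 6 in knockdown and 3.09 ± 0.377% in control at 36 h, and 3.58 ± 2.34% in knockdown and 1.77 ± 0.519% in control at 0 h (SD, n = 3 each). No library of another group reached the 10.3% of the lowest knockdown library at 36 h. Stfa3 gave 40.9% in knockdown and 36.0% in control at 36 h, against 61.4% in knockdown and 62.9% in control at 0 h. Cstdc5 gave 24.1% in knockdown and 31.9% in control at 36 h, against 17.7% in knockdown and 18.6% in control at 0 h. Cstdc6 gave 22.7% in knockdown and 28.6% in control at 36 h, against 16.9% in knockdown and 16.6% in control at 0 h. The ratio of Cstdc5 to Cstdc6 was 1.07 ± 0.0760 in knockdown and 1.12 ± 0.137 in control at 36 h, and 1.15 ± 0.466 in knockdown and 1.21 ± 0.537 in control at 0 h (SD, n = 3 each), where single libraries ranged from 0.623 to 1.51 in knockdown and from 0.712 to 1.78 in control. The ratio of Stfa2 to Stfa3 was 0.286 ± 0.0174 in knockdown and 0.0862 ± 0.0129 in control at 36 h. These shares and ratios are within a library, so they do not depend on how libraries were scaled.

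**Figure D3:**
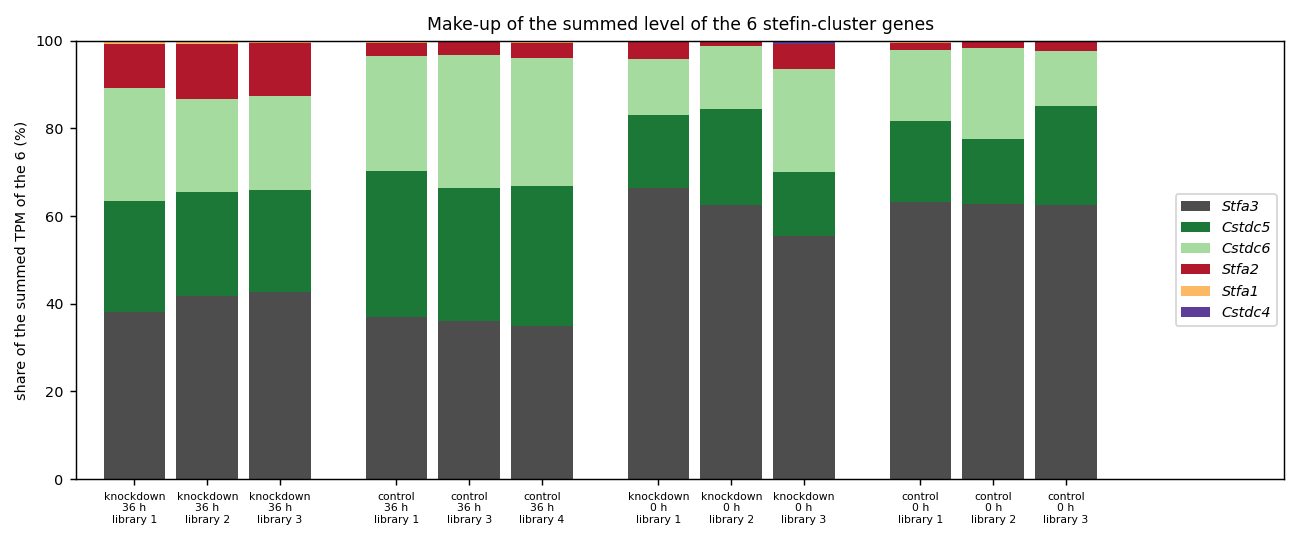
Share of the summed TPM of the 6 cluster genes (without Cstb) taken by each gene, in percent, one stacked bar per library. Stfa2 takes 10.3% to 12.7% in the 3 knockdown libraries at 36 h, and Stfa3 takes 55.5% to 66.3% in the 6 libraries at 0 h.

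Of 29 other cystatin genes, 22 were in the table and 6 could be tested. Cst6, the secreted cystatin M/E that inhibits legumain and cathepsin L, was the only one of these 6 that passed between genotypes with all 12 libraries in the fit, where 2.53% of all genes were called at 36 h and 17.7% at 0 h. It averaged 251 ± 21.6 TPM in knockdown and 126 ± 6.66 TPM in control at 36 h, and 583 ± 73.4 TPM in knockdown and 189 ± 27.1 TPM in control at 0 h. The groups did not overlap at either time. Cst6 rose in knockdown by 0.99 at 36 h (limma adjusted p = 0.0185) and by 1.63 at 0 h (adjusted p = 0.0009376), and in knockdown it fell by 1.21 at 36 h relative to 0 h (adjusted p = 0.00732). Its call at 36 h was lost without any one of the knockdown 36 h libraries, or control 36 h library 1 or 4 (adjusted p = 0.0707 to 0.0971), and its call at 0 h held in all 23 alternatives. Stfa2l1, the stefin A-like gene whose transcript holds 14.7% of the 50-base windows of Stfa2, had 30.5 ± 4.21 TPM in knockdown and 10.8 ± 3.63 TPM in control at 36 h, and 2.15 ± 1.70 TPM in knockdown and 3.27 ± 1.24 TPM in control at 0 h. It rose over time in knockdown by 3.49 (adjusted p = 0.00228), and its knockdown-minus-control value at 36 h was 1.47 (adjusted p = 0.0997), which passed without knockdown 0 h library 2 (adjusted p = 0.0181) or library 3 (0.0262). Cst3, the secreted cystatin C, Csta1, Fetub, which encodes the plasma protein fetuin-B, and Kng2, a kininogen gene, passed in none of the 5 comparisons with all 12 libraries. Without knockdown 0 h library 2, where 19.0% and 23.7% of all genes were called between genotypes, Fetub was higher in knockdown by 1.17 at 36 h (adjusted p = 0.0004171) and by 1.06 at 0 h (adjusted p = 0.0009092). Csta1 was then higher in knockdown by 0.64 at 36 h (adjusted p = 0.0279), with −0.94 at 0 h (adjusted p = 0.00668), and higher over time in knockdown by 2.25 (adjusted p = 0.0001994). In control Cst3 rose over time in that fit (adjusted p = 0.0268), and Kng2 (adjusted p = 0.0325) and Cst6 (adjusted p = 0.0216) fell.

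Cysteine cathepsins include the proteases that stefins inhibit, and the list also held legumain. Of 11 genes for cysteine cathepsins and legumain, 9 could be tested, and Ctsk and Ctss were too low. At 36 h, where 2.53% of all genes were called, 0 of the 9 were called between genotypes in limma. Under median-of-ratios scaling 1 was, as were 813 of 14373 genes. On the TPM scale 2 had an unadjusted p under 0.05 (Ctsf, 1.01, and Ctso, 0.77), as had 2345 of the 14426 tested genes. At 0 h, where 17.7% of all genes were called, 2 fell in knockdown, Ctsh, the aminopeptidase cathepsin H, by 1.47 (adjusted p = 0.00826) and Ctsw by 1.04 (adjusted p = 0.0270), while Ctsw had at most 3.59 TPM. The Ctsw call was lost without any one of the control 0 h libraries or knockdown 0 h library 1 (adjusted p = 0.0601 to 0.0960). Ctsh had 74.4 ± 4.89 TPM in knockdown and 109 ± 8.11 TPM in control at 36 h, and 73.6 ± 32.2 TPM in knockdown and 191 ± 9.74 TPM in control at 0 h. Ctsb, which encodes cathepsin B, ranged from 77.8 to 693 TPM over the knockdown libraries at 0 h, and its knockdown-minus-control value of −1.09 did not pass (adjusted p = 0.222). With knockdown 0 h library 2 left out that value was −0.06 (adjusted p = 0.783). Leaving out knockdown 0 h library 2 raised the count to 4 at 0 h (Ctsh and Ctsw lower, Ctsz and Ctsf higher) and to 6 at 36 h (Ctsf, Ctso, Ctsz, Ctsl and Lgmn higher, Ctsh lower), with 23.7% and 19.0% of all genes called.

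**Figure D4:**
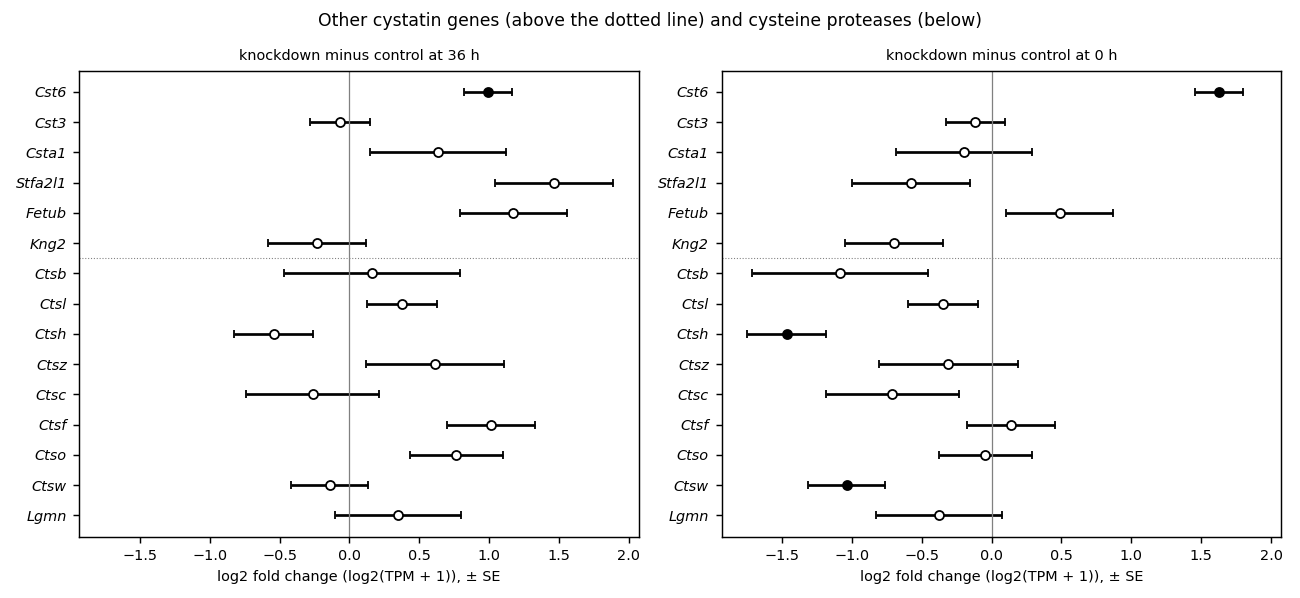
Differences in log2(TPM + 1), knockdown minus control, with bars for ± SE from limma (n = 3 per group), for 6 other cystatin genes (above the dotted line) and 9 cysteine protease genes (below it), at 36 h on the left and 0 h on the right. Filled points have an adjusted p under 0.05. Cst6 is filled in both panels (0.99 and 1.63), and Ctsh and Ctsw are filled below 0 at 0 h.

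Other inhibitor and epithelial lists were counted alongside. None of 15 tested lysosomal genes outside the cysteine proteases was called in limma in any of the 5 comparisons. Between genotypes 2 had an unadjusted p under 0.05 at 36 h and 5 at 0 h, as had 2345 and 5381 of all 14426 tested genes. Leaving out knockdown 0 h library 2 made the count called between genotypes 6 at both times, with 19.0% of all genes called at 36 h and 23.7% at 0 h. Of these, 5 were higher and 1 lower in knockdown at 36 h, and 4 higher and 2 lower at 0 h. Over time 3 were then lower in knockdown and 2 in control, with 2.87% and 2.82% of all genes called. Of 9 tested genes for clade B serpins and calpastatin, mostly intracellular inhibitors of other proteases, 1 fell in knockdown at 36 h (Serpinb2, by 0.98, adjusted p = 0.0417), where 1.64% of all genes were called lower, and 3 at 0 h (Serpinb1a, Serpinb8 and Cast), where 14.6% were. With that library left out, Serpinb2 and Serpinb8 were lower at 36 h, and Serpinb1a and Serpinb8 at 0 h, where Cast had an adjusted p of 0.0596. Of 14227 genes in that fit, 1701 were called lower at 36 h and 2396 at 0 h. Over time none was called in limma. In knockdown 4 had an unadjusted p under 0.05 and in control 3, as had 2363 and 803 of all 14426 genes. Without that library Serpinb5 was higher in both genotypes and Serpinb9 in control, with 278 of 14227 genes called higher in knockdown and 174 in control.

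Of 8 tested genes of the cornified envelope, the protein shell of keratinocytes in which human stefin A is found, none was called between genotypes at 36 h in limma. There 5 had an unadjusted p under 0.05, as had 2345 of all 14426 tested genes. At 0 h 5 fell in knockdown, Sprr1a, Sprr1b, Sprr2h, Ppl and Anxa1, among them Sprr1b by 2.05 (adjusted p = 0.0006244) and Sprr2h by 2.08 (adjusted p = 0.00482), while 14.6% of all genes were called lower. When knockdown 0 h library 2 was left out, Krt10 was higher in knockdown at both times. In that fit Sprr1a, Sprr1b, Ppl, Anxa1 and Cnfn were lower at 36 h, and Sprr1a, Sprr1b, Sprr2h and Anxa1 at 0 h, where Ppl had an adjusted p of 0.0527. Of its 14227 genes, 1701 were called lower and 998 higher in knockdown at 36 h, and 2396 lower and 973 higher at 0 h. Over time 1 rose in knockdown (Sprr1b, 2.18, adjusted p = 0.0002125) and 1 in control (Cnfn, 1.73, adjusted p = 0.0157), with 0.998% and 0.250% of all genes called higher. Without knockdown 0 h library 2, 2 rose in knockdown, and 2 rose and 2 fell in control, with 2.87% and 2.82% of all genes called. The 0 h call of Sprr1b held in all 23 alternatives, that of Sprr2h was lost in 1 of 23, of Sprr1a in 4, of Ppl in 10 and of Anxa1 in 15. The 0 h calls of Serpinb1a, Serpinb8 and Cast were each lost when any one of 3 or more libraries was left out (limma adjusted p up to 0.0999, 0.0869 and 0.118). So were the call of Serpinb2 between genotypes at 36 h (up to 0.167) and that of Cnfn over time in control (up to 0.103).

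The genes most like the summed cluster over the 12 libraries, by Pearson correlation of log2(TPM + 1) among 9325 candidates, were Fam25a (0.970), Krt6b (0.954), Krt6a (0.951), Krtdap (0.943), Id2 (0.937), Scrg1 (0.936), Selenoh (0.933) and Krt16 (0.932). The points share libraries and fall into 4 groups, so these values only describe the order. Krt6a, Krt6b and Krt16 encode keratins known from wounded and activated epidermis. Krt6a averaged 733 TPM in knockdown and 380 TPM in control at 36 h, and 66.2 TPM in knockdown and 115 TPM in control at 0 h, the same order of groups as the cluster sum. Those most like Cstb were Cystm1 (0.964), Timp1 (0.961), Stmp1 (0.959), Ccl17 (0.948) and Chchd10 (0.945). Timp1, an inhibitor of matrix metalloproteases, averaged 99.6 TPM in knockdown and 82.5 TPM in control at 36 h, and 188 TPM in knockdown and 141 TPM in control at 0 h.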

How the data were processed

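Stranded mRNA libraries were made from total RNA of HC11 aggregates, per the labels' protocols. Build GRCm39 and the tools HISAT2 2.2.1, HTSeq, cutadapt 1.9.1, DESeq2 and FastQC are listed in the submitters' processing notes, without their roles. The authors deposited TPM per gene and library, and which program made them is not given in the sources used here. TPM keep no depth, so no counting error is given. Groups come from sample titles. Per-gene tests used limma 3.58.1 under R 4.3.3 on log2(TPM + 1) for the 14426 genes that reached 1 TPM in 3 or more of the 12 libraries, with 4 group means fitted together, a variance trend and Benjamini-Hochberg adjustment over all genes in each of 5 comparisons, called at an adjusted p under 0.05. Adding 1 understates changes of low genes. Of the 7 genes, 6 passed the filter, and Cstdc4 did not. The script was tested on simulated data. Sums were taken on TPM and not tested. Shared windows were counted on GENCODE M21 transcripts, and promoters (GRCm38.p6) and gene order came from RefSeq, so no GRCm39 coordinates are given. The genes and lists were chosen with earlier results of these data known, and motifs after the sequences were seen. Genes named beside the 7 were first the tested genes of the cystatin and cysteine protease lists. From the other lists they were mostly genes called in a comparison, with or without knockdown 0 h library 2. The rest were the 8 and 5 most correlated with the cluster sum and with Cstb at a mean of at least 5 TPM. Alternatives were another pseudocount, other filters, another scaling, leaving out short or mitochondrial genes, a replicate block, each library left out, and fits of 2 groups alone.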

Additional observations from a re-analysis of the deposited data

Results flagged for a closer look

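Stfa3 is listed here because its 3 knockdown libraries all lay above the control libraries at 36 h and all below them at 0 h. It had 149 to 178 TPM in knockdown and 86.4 to 137 TPM in control at 36 h, and 16.4 to 30.8 TPM in knockdown and 54.1 to 63.6 TPM in control at 0 h. The difference between the 2 genotype effects was 1.90 on the log2 scale (limma adjusted p = 0.305) and did not pass. It was 2.17 (adjusted p = 0.0115) without knockdown 0 h library 2, the library with the high share of TPM in genes of 300 to 700 bases, whose part in the result was not tested beyond that.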

How the results depend on the processing

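Every setting kept 4 to 6 of the 6 tested genes called between 36 h and 0 h in knockdown (5 as reported). Of all genes, 162 were called there as reported, and 19 to 1572 in the alternatives. These and the all-gene counts below are out of 13311 to 35924 tested genes, depending on the setting. At 0 h the count of called genes between genotypes (4) was 2 with no filter, 1 with median-of-ratios scaling and 2 with the replicate block. It was 0 with block and scaling together, 0 with only the groups compared, and 1 to 4 with 1 library left out. All-gene counts in the same order were 2550 as reported, then 1258, 2696, 1011, 1395, 89 and 755 to 5869. At 36 h the count among the 6 (1) was 2 with no filter, 0 with the block and 1 to 2 with 1 library left out. All-gene counts there were 365 as reported, then 192, 5 and 24 to 2699. Over time in control the count among the 6 (3) was 0 with the block, with or without the scaling, and 5 with only the groups compared. It was 5 without knockdown 0 h library 2 on the other scaling, and 1 to 6 with 1 library left out. All-gene counts there were 52 as reported, 6 with the block alone and 11 with the scaling added, then 318, 382 and 18 to 401. For the difference of changes the count among the 6 (0) was 0 to 1 with 1 library left out. It was 1 without knockdown 0 h library 2 and control 36 h library 4, where 8 of all genes were called. For the cysteine proteases at 0 h (2) the count was 1 with a pseudocount of 0.1, no filter, a 5 TPM filter or the block, with or without the scaling. It was 0 with only the groups compared, 4 without knockdown 0 h library 2 on the other scaling, and 1 to 4 with 1 library left out. All-gene counts at 0 h not given above were 2415 with that pseudocount, 2374 with the 5 TPM filter and 3212 without knockdown 0 h library 2 on the other scaling. At 36 h the cysteine protease count (0) was 1 with the scaling, 5 with only the groups compared and 5 without knockdown 0 h library 2 on the other scaling. It was 5 without that library and control 36 h library 4, and 0 to 6 with 1 library left out. All-gene counts in the same order were 365 as reported, then 813, 2377, 2702, 1448 and 24 to 2699. Over time in control (0) the same 3 settings after the scaling gave 3, 3 and 2 cysteine proteases, and 1 library left out gave 0 to 4. All-gene counts there were 52 as reported, then 318, 382, 160 and 18 to 401. Median-of-ratios scaling moved the log2 ratio of the sum of 7 to 1.03 at 0 h (0.46), −0.81 over time in knockdown (−0.34) and −0.63 for the difference (−0.15). It moved that of the sum of 6 to −0.73 (−1.37), 2.95 (3.49) and 1.09 (1.65), and without knockdown 0 h library 2 and control 36 h library 4 the difference was 2.05, against 1.46 to 1.96 with 1 library left out. Knockdown-minus-control values at 36 h near 0 changed sign: Cstdc5 was 0.0068 with the scaling, 0.0087 without knockdown 0 h library 2 on that scale, 0.0035 without that library and control 36 h library 4, and −0.2835 to 0.0161 with 1 library left out. Cstdc6 was 0.0693, 0.0712, 0.0829 and −0.3131 to 0.1408 in the same settings, and Stfa1 was −0.0787 to 0.1631 with 1 library left out. Ctsb at 0 h was 0.1283 without knockdown 0 h library 2 on that scale, against −1.09. The cause of these moves was not tested. Replicate numbers were not shown to pair the libraries. Same-numbered libraries of different groups correlated by −0.287 to 0.132 in their deviations from the group mean (15 pairs, median 0.0091). Differently numbered ones correlated by −0.238 to 0.255 (39 pairs, median −0.0118). With group means of 3 libraries these values cannot settle whether the libraries are paired. With the replicate block Stfa2 was 2.36 at 36 h (limma adjusted p = 0.0794) and 1.83 over time in control (adjusted p = 0.195). The settings without knockdown 0 h library 2 together with another change, and the sum of 6, were chosen after seeing the data.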
